A study of Homo sapiens with 18 samples.

Results

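The unfolded protein response of the endoplasmic reticulum was followed through 10 genes: HSPA5, HSP90B1, PDIA4, SDF2L1, DNAJC3, DNAJB9, HERPUD1, SEL1L, EDEM1 and XBP1. They were listed by symbol, with earlier results of these data known, and all 10 were found among the 23686 gene symbols of the deposited tables. RNA had been measured by bulk RNA sequencing in 18 libraries of OCI-Ly1 and TMD8, established cell lines of human diffuse large B-cell lymphoma. The cells received JIB-04, a small-molecule inhibitor of the Jumonji family of histone demethylases, at 150 or 500 nM, or the vehicle alone, 0.01% DMSO. Each line had 3 groups and each group 3 libraries. OCI-Ly1 grew in IMDM and TMD8 in RPMI 1640, both with serum and antibiotics, so line and medium cannot be told apart. The treatment time was not given in the sources used here. The labels call the libraries of a group technical triplicates, so the p-values measure only the spread between these libraries, which may be technical.

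Secreted and membrane proteins fold in the endoplasmic reticulum, and unfolded protein there is sensed by IRE1, ATF6 and PERK. IRE1, encoded by ERN1, splices the XBP1 mRNA so that it yields an active transcription factor. ATF6 moves to the Golgi, is cut there by the proteases MBTPS1 and MBTPS2, and then switches on chaperone genes. PERK, encoded by EIF2AK3, slows translation while ATF4 is still made, and the same ATF4 output can be reached through other kinases of the integrated stress response. In B cells the IRE1 and XBP1 arm is known for its part in antibody secretion by plasma cells. The 10 genes are textbook targets of the ATF6 and XBP1 arms, and the comparison addresses whether RNA changes after JIB-04 extend to those arms.

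The control regions of the genes were read first, because they show which of them carry the DNA elements of these arms. All 10 genes matched the RefSeq promoter table (GRCh38.p14), and the 250 bases before each start site were searched on both strands. The endoplasmic reticulum stress element (ERSE: CCAAT, 9 bases of any kind, then CCACG), bound by ATF6 and the CCAAT factor NF-Y, was present in 3 of the 10 genes and in 0.0806% of the 27305 promoters of the table (22 promoters). Its variant ERSE-II (ATTGG, any 1 base, then CCACG) was present in 2 of the 10 genes and in 0.0513% of all promoters (14 promoters). The XBP1 element core (UPRE, TGACGTGG) was in 0 of the 10 windows and in 0.667% of all promoters. The amino-acid response element of ATF4 (AARE, TGATGNAA) was in 1 of the 10 and in 3.19% of all promoters. A match is a description of these letters, not a shown binding site, and no match says only that the letters are not in the window.

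The 5 promoters with a match are printed because they hold members that moved in opposite directions below. Each is given 5′ to 3′ on the strand of its gene, in lower case with the matched elements in capitals. The HSPA5 promoter lies at chr9:125241344-125241593 on the minus strand and has an ERSE from 66 to 48 bases before the start. That of HSP90B1 lies at chr12:103930160-103930409 on the plus strand and has an ERSE from 194 to 176 bases before the start and another, on the opposite strand, from 89 to 71. That of SDF2L1 lies at chr22:21642052-21642301 on the plus strand and has an ERSE-II on the opposite strand from 188 to 178 bases before the start. The HERPUD1 promoter lies at chr16:56931892-56932141 on the plus strand, with an AARE on the opposite strand from 176 to 169 bases before the start and an ERSE-II from 117 to 107. The XBP1 promoter lies at chr22:28800570-28800819 on the minus strand and has an ERSE from 52 to 34 bases before the start. No 2 matches overlapped.
HSPA5: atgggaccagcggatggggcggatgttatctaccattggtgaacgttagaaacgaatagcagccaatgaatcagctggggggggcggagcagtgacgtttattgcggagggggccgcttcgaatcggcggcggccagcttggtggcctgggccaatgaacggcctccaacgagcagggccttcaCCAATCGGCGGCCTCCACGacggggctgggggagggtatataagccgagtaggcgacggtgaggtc
HSP90B1: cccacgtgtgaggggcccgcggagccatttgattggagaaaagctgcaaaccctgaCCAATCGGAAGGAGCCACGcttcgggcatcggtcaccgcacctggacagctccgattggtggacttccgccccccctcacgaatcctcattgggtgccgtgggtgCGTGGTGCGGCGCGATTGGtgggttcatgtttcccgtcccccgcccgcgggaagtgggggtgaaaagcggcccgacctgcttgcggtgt
SDF2L1: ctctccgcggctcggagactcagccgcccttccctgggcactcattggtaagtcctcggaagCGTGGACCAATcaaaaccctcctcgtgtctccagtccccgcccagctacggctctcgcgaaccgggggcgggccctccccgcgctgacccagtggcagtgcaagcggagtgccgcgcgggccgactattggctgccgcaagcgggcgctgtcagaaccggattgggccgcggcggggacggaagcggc
HERPUD1: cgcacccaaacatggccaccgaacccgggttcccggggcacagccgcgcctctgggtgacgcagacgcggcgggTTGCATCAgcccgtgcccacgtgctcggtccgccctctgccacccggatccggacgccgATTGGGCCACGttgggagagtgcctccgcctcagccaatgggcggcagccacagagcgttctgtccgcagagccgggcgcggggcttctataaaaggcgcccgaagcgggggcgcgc
XBP1: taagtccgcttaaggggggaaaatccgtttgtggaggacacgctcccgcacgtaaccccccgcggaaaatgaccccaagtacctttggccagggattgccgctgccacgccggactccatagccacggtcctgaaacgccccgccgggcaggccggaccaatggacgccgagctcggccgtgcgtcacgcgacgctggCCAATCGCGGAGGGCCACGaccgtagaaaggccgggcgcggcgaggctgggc

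At 500 nM the 10 genes split into risers and fallers in OCI-Ly1, and the risers were shared with TMD8. DNAJC3, DNAJB9, HERPUD1, SEL1L, EDEM1 and XBP1, 6 genes in all, rose in both lines. HSPA5, HSP90B1 and PDIA4, 3 genes, fell in OCI-Ly1. In TMD8 their changes were smaller, from -0.21 to -0.12, and the calls of HSPA5 and PDIA4 were lost with library size as the only scaling. SDF2L1 fell in OCI-Ly1 alone of the 2 lines. A gene was called at an edgeR adjusted p under 0.05 over all genes tested in its line, 15638 in OCI-Ly1 and 15363 in TMD8, and all 10 genes were tested in both. In OCI-Ly1 at 500 nM 6 of the 10 were called higher, against 27.7% of all genes tested, and 4 lower, against 25.9%. In TMD8 at 500 nM 6 were called higher, against 29.9% of all genes, and 3 lower, against 30.7%. At 150 nM OCI-Ly1 had 3 called higher, against 0.748%, and 0 lower, against 0.141%. TMD8 at 150 nM had 6 called higher, against 19.2%, and 1 lower, against 25%. The count called lower in TMD8 at 500 nM was thus near the background of that line, so nothing is read from it about these genes, and with library size as the only scaling it was 1, HSP90B1. The counts called higher lay above their backgrounds. The 4 called lower in OCI-Ly1 at 500 nM were not far above the 25.9% of all genes. These falls are therefore given gene by gene and not read as a trait of the list. The median log2 fold change of the 10 at 500 nM was 0.40 in OCI-Ly1, where the median of all genes tested was -0.00, and 0.43 in TMD8, where it was 0.04. Levels below are TMM-normalised counts per 1000000 counts (CPM), and fold changes are on the log2 scale with their standard error (SE). CPM are shares of the RNA, and in bulk RNA fewer cells that express a gene and less of its RNA per cell cannot be told apart.

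**Figure D1:**
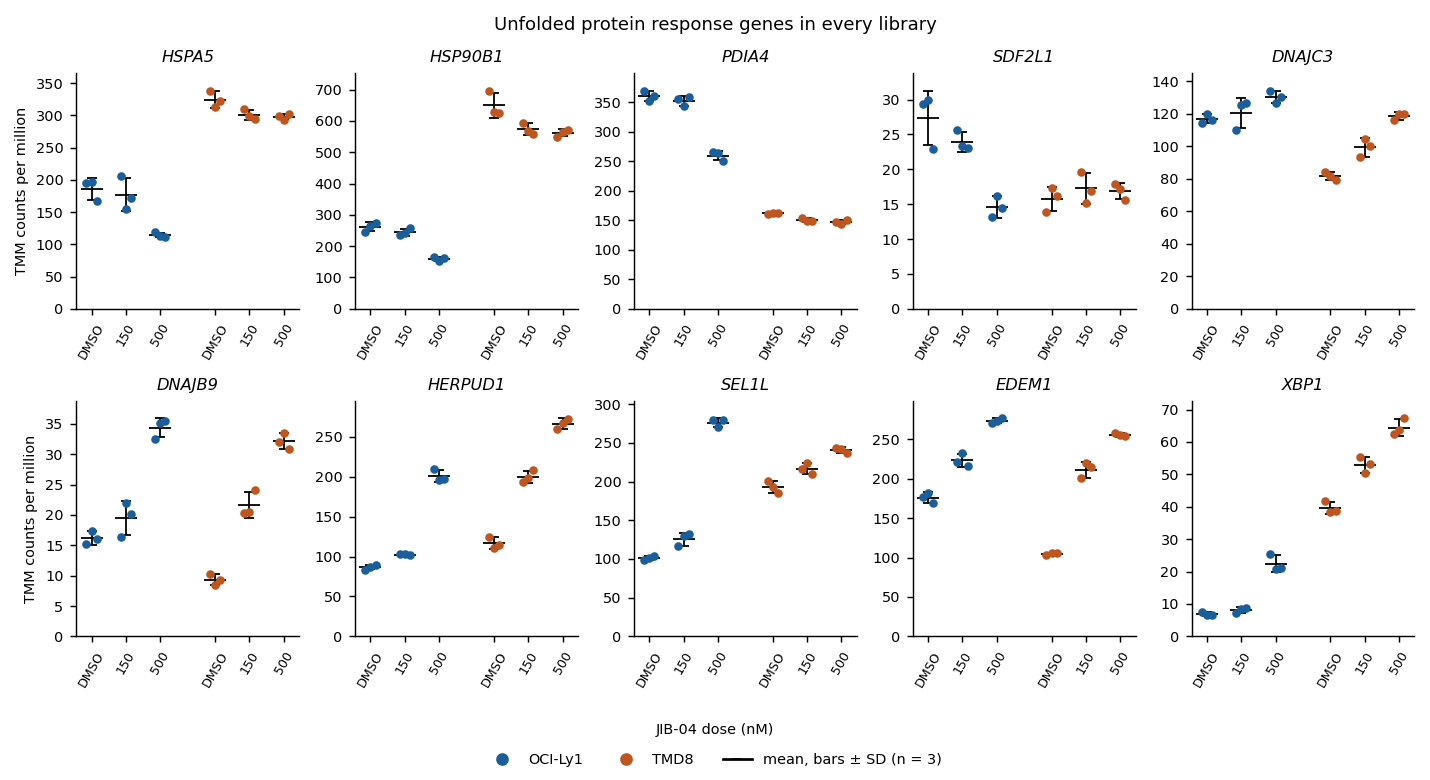
Level of each of the 10 genes in every library, as TMM-normalised CPM on a linear axis from 0, by JIB-04 dose and cell line; points are libraries, lines the mean and bars ± SD (n = 3). The DMSO and 500 nM libraries of SDF2L1 overlapped in TMD8. Those of the other genes did not overlap in either line. This is a description only, as the share over all genes was not counted.

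The large chaperones of the lumen fell in OCI-Ly1, while in TMD8 their falls were small and partly lost under the alternatives. HSPA5, the Hsp70 chaperone BiP that also holds the sensors inactive, stood at 195, 196 and 167 CPM in the OCI-Ly1 libraries with DMSO, at 206, 154 and 171 at 150 nM, then at 119, 114 and 112 at 500 nM. Every 500 nM library was below every DMSO library, while the 150 nM libraries overlapped both the upper and the lower end of DMSO. HSPA5 fell by 0.70 (± 0.08 SE, adjusted p = 2.1e-06 by edgeR) at 500 nM, and its change at 150 nM was -0.07 (± 0.08 SE, adjusted p = 0.84 by edgeR). In TMD8 it stood at 338, 313 and 322 CPM with DMSO, 309.6, 299.7 and 294 at 150 nM, then 299, 293 and 302 at 500 nM. The treated libraries lay below the DMSO ones, while the 150 and 500 nM libraries overlapped each other. The change in TMD8 was -0.12 (± 0.05 SE, adjusted p = 0.029 by edgeR) at 500 nM and -0.11 (± 0.05 SE, adjusted p = 0.064 by edgeR) at 150 nM. That call at 500 nM was lost with library size as the only scaling (-0.03, adjusted p = 0.52 by edgeR). It was also lost without DMSO replicate 1 (-0.09) or without 500 nM replicate 1 (-0.13), 2 (-0.11) or 3 (-0.13), with edgeR adjusted p between 0.053 and 0.1. At 150 nM HSPA5 passed the threshold without DMSO replicate 2 (-0.14, adjusted p = 0.049 by edgeR) or 150 nM replicate 1 (-0.13, adjusted p = 0.04 by edgeR).

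HSP90B1, the Hsp90 chaperone GRP94 that folds immunoglobulins and Toll-like receptors, behaved alike. It stood at 245, 266 and 274 CPM in OCI-Ly1 with DMSO, 236, 241 and 257 at 150 nM, then 164, 153 and 161 at 500 nM. In TMD8 the values were 696, 629.8 and 624 CPM with DMSO, 594, 567 and 558 at 150 nM, then 549.7, 566 and 572 at 500 nM. The 500 nM libraries were lower than all DMSO libraries in both lines, with a smaller gap in TMD8. HSP90B1 fell by 0.71 (± 0.05 SE, adjusted p = 6.6e-09 by edgeR) in OCI-Ly1 and by 0.21 (± 0.05 SE, adjusted p = 0.0019 by edgeR) in TMD8 at 500 nM. At 150 nM the change was -0.10 in OCI-Ly1 (adjusted p = 0.59 by edgeR) and -0.18 in TMD8 (adjusted p = 0.0081 by edgeR). The TMD8 call at 150 nM was lost without 150 nM replicate 3 (-0.13, adjusted p = 0.065 by edgeR), with library size only (-0.10) and in a fit of those 2 groups only (-0.15). The pseudogene HSP90B2P, a near copy that could share reads with HSP90B1, held 1.63 to 2.74 CPM in OCI-Ly1 and 0.729 to 1.79 CPM in TMD8.

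PDIA4, the disulfide isomerase ERp72, stood at 369, 351 and 359.6 CPM in OCI-Ly1 with DMSO, 355, 343 and 358 at 150 nM, then 265, 263 and 250.2 at 500 nM. TMD8 held 159.8, 162 and 163 CPM with DMSO, 154, 148 and 149 at 150 nM, then 147, 143 and 151 at 500 nM. Groups at 500 nM and DMSO did not overlap in either line. PDIA4 fell by 0.47 (± 0.05 SE, adjusted p = 1.5e-07 by edgeR) in OCI-Ly1 and by 0.14 (± 0.04 SE, adjusted p = 0.012 by edgeR) in TMD8 at 500 nM. The TMD8 call was lost without 500 nM replicate 2 (-0.12, adjusted p = 0.067 by edgeR) and with library size as the only scaling (-0.04, adjusted p = 0.34 by edgeR). At 150 nM the change in TMD8 was -0.10 (adjusted p = 0.062 by edgeR), and it passed the threshold without DMSO replicate 1 (-0.11) or 150 nM replicate 1 (-0.12). Without 500 nM replicate 2 the count of genes called lower in TMD8 at 500 nM was 1, HSP90B1, in place of 3.

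The partners of BiP went separate ways. SDF2L1, a lumenal protein that works with BiP and its J-domain partners against aggregation, stood at 29.3, 29.9 and 22.8 CPM in OCI-Ly1 with DMSO, 25.6, 23.3 and 23 at 150 nM, then 13.1, 16.1 and 14.5 at 500 nM. It fell by 0.91 (± 0.10 SE, adjusted p = 1.2e-06 by edgeR) at 500 nM, the largest fall among the 10 genes in that line. The 500 nM libraries did not overlap those with DMSO, while the 150 nM libraries did. In TMD8 it held 13.9, 17.3 and 16.1 CPM with DMSO, 19.7, 15.2 and 16.9 at 150 nM, then 17.9, 17.1 and 15.7 at 500 nM, and the 3 groups overlapped. The TMD8 change at 500 nM was 0.10 (± 0.10 SE, adjusted p = 0.42 by edgeR), with a 95% interval from -0.10 to 0.31. On the log2(TPM + 0.1) scale (TPM are transcripts per 1000000, the other deposited unit) it was -0.27 (adjusted p = 0.049 by limma), where the median of all genes was -0.309.

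DNAJC3, the J-domain protein p58IPK that brings clients to BiP and inhibits PERK, stood at 114, 120.1 and 116 CPM in OCI-Ly1 with DMSO, 109.9, 125 and 127 at 150 nM, then 134, 127 and 130.5 at 500 nM. In TMD8 the values were 84.3, 81.6 and 79.4 CPM with DMSO, 93.1, 105 and 99.9 at 150 nM, then 116, 120.1 and 119.6 at 500 nM. The 3 TMD8 groups stepped up with dose without overlap, while in OCI-Ly1 the 500 nM libraries cleared DMSO by a narrow margin. DNAJC3 rose by 0.54 (± 0.05 SE, adjusted p = 5.6e-08 by edgeR) in TMD8 and by 0.16 (± 0.06 SE, adjusted p = 0.032 by edgeR) in OCI-Ly1 at 500 nM. The OCI-Ly1 call was lost without DMSO replicate 1 (0.14) or 3 (0.15) and without 500 nM replicate 1 (0.13) or 3 (0.16), with edgeR adjusted p from 0.073 to 0.12. It was also lost on centred TPM (0.06), and the TMD8 call was lost on log2(TPM + 1) without centring (0.15, adjusted p = 0.22 by limma).

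DNAJB9, the J-domain protein ERdj4 that aids degradation and brings BiP to IRE1, rose most in TMD8. It stood at 10.3, 8.47 and 9.36 CPM in TMD8 with DMSO, 20.4, 20.5 and 24.1 at 150 nM, then 32, 33.6 and 30.9 at 500 nM. In OCI-Ly1 it held 15.2, 17.4 and 16.1 CPM with DMSO, 16.4, 22 and 20.2 at 150 nM, then 32.6, 35.1 and 35.4 at 500 nM. In CPM, scaled within each line, both lines reached a like level at 500 nM from a lower start in TMD8. The rise at 500 nM was 1.79 (± 0.09 SE, adjusted p = 2.6e-11 by edgeR, 3.45-fold) in TMD8 and 1.09 (± 0.10 SE, adjusted p = 4.2e-08 by edgeR, 2.13-fold) in OCI-Ly1. At 150 nM it was already 1.22 in TMD8 (adjusted p = 2.9e-08 by edgeR), against 0.27 in OCI-Ly1 (adjusted p = 0.33 by edgeR). Without 150 nM replicate 1, the lowest of its group, the OCI-Ly1 value was 0.39 (adjusted p = 0.029 by edgeR).

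The 3 genes of endoplasmic-reticulum-associated degradation, which returns misfolded protein to the cytosol for the proteasome, all rose in both lines at 500 nM. HERPUD1, a membrane protein of the HRD1 ubiquitin ligase complex, stood at 83.8, 87.2 and 89.9 CPM in OCI-Ly1 with DMSO, 103, 103 and 102 at 150 nM, then 209.6, 195 and 198 at 500 nM. In TMD8 the values were 125, 111 and 114 CPM with DMSO, 193, 199 and 208 at 150 nM, then 259.5, 268 and 273 at 500 nM. No 2 groups overlapped in either line, and the order followed the dose. HERPUD1 rose by 1.21 (± 0.05 SE, adjusted p = 2.6e-12 by edgeR, 2.31-fold) in OCI-Ly1 and by 1.19 (± 0.05 SE, adjusted p = 3.5e-12 by edgeR, 2.29-fold) in TMD8 at 500 nM. At 150 nM the rise was 0.78 in TMD8 (adjusted p = 5.9e-09 by edgeR) and 0.24 in OCI-Ly1 (adjusted p = 0.039 by edgeR). That OCI-Ly1 call at 150 nM was lost without DMSO replicate 1 (0.21) or 2 (0.24) and without 150 nM replicate 2 (0.24) or 3 (0.24), with edgeR adjusted p from 0.1 to 0.16. Further losses came on the TPM scales, centred included (adjusted p from 0.051 to 0.083 by limma), and in a fit of those 2 groups only (0.25). The call held in 7 of 16 alternatives. HERPUD1 is the member with both an ERSE-II and an AARE in its window.

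SEL1L, the adaptor that steadies the HRD1 ligase, rose far more in OCI-Ly1. It stood at 98.2, 102 and 104 CPM in OCI-Ly1 with DMSO, 116, 129 and 132 at 150 nM, then 279, 269.9 and 279.7 at 500 nM. In TMD8 it held 200.4, 192 and 185 CPM with DMSO, 216, 224 and 210.2 at 150 nM, then 244, 242 and 237 at 500 nM. The groups of both lines were ordered by dose without overlap. At 500 nM SEL1L rose by 1.45 (± 0.06 SE, adjusted p = 5e-13 by edgeR, 2.73-fold) in OCI-Ly1 and by 0.32 (± 0.05 SE, adjusted p = 8.9e-06 by edgeR, 1.25-fold) in TMD8. The rise at 150 nM was 0.31 in OCI-Ly1 (adjusted p = 0.0076 by edgeR), which was lost without 150 nM replicate 2 (0.29, adjusted p = 0.063 by edgeR), and 0.17 in TMD8 (adjusted p = 0.0062 by edgeR). Without that same replicate the count called higher in OCI-Ly1 at 150 nM was 1, EDEM1, in place of 3. The OCI-Ly1 call of SEL1L at 150 nM was also lost on the TPM scales, centred included (0.20 to 0.24, adjusted p from 0.33 to 0.44 by limma). Its TMD8 call at 150 nM was lost on the uncentred TPM scales (0.04). On the log2(TPM + 1) scale the TMD8 change of SEL1L at 500 nM was 0.00, where the median of all genes was -0.219.

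EDEM1, a mannosidase-like lectin that picks misfolded glycoproteins for degradation, stood at 177, 182 and 169 CPM in OCI-Ly1 with DMSO, 221, 233 and 216 at 150 nM, then 270.3, 274 and 277 at 500 nM. In TMD8 it held 103, 105 and 106 CPM with DMSO, 200.5, 219.7 and 214 at 150 nM, then 258, 256 and 254 at 500 nM. All groups stepped up with dose without overlap. EDEM1 rose by 1.29 (± 0.05 SE, adjusted p = 5.5e-13 by edgeR, 2.44-fold) in TMD8 and by 0.64 (± 0.05 SE, adjusted p = 7.9e-09 by edgeR, 1.56-fold) in OCI-Ly1 at 500 nM. At 150 nM it rose by 1.02 in TMD8 (adjusted p = 9.9e-11 by edgeR) and by 0.34 in OCI-Ly1 (adjusted p = 0.00091 by edgeR). It was the only one of the 10 genes called at 150 nM in OCI-Ly1 under all 16 alternatives run for that comparison.

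XBP1, the transcription factor of the IRE1 arm and itself an ATF6 target, had the largest rise of the 10 in OCI-Ly1. It stood at 7.65, 6.46 and 6.54 CPM in OCI-Ly1 with DMSO, 7.06, 8.38 and 8.72 at 150 nM, then 25.5, 20.8 and 21 at 500 nM. In TMD8 the values were 41.7, 38.2 and 38.8 CPM with DMSO, 55.4, 50.4 and 53.2 at 150 nM, then 62.4, 63.7 and 67.3 at 500 nM. In CPM, which were scaled within each line, OCI-Ly1 thus started far lower and stayed below every TMD8 library even at 500 nM. XBP1 rose by 1.70 (± 0.12 SE, adjusted p = 1.4e-09 by edgeR, 3.25-fold) in OCI-Ly1 and by 0.70 (± 0.06 SE, adjusted p = 1.4e-08 by edgeR, 1.63-fold) in TMD8 at 500 nM. At 150 nM it rose by 0.42 in TMD8 (adjusted p = 1.9e-05 by edgeR), and the OCI-Ly1 value of 0.22 (adjusted p = 0.6 by edgeR) did not pass. The OCI-Ly1 libraries with DMSO held as few as 110 estimated counts of XBP1, the lowest of any of the 10 genes in any library.

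The rise of XBP1 counts its total mRNA. IRE1 removes a stretch of 26 bases from this mRNA, and the stretch is printed because it is what separates the inactive from the active message. In the GENCODE 29 transcripts it is the difference between XBP1-201, XBP1-203, XBP1-204 and XBP1-206, which have it, and XBP1-202 and XBP1-207, which lack it; its ends can shift by 6 bases because of a repeat. The capitals mark the first of 7 equivalent placements of the 26 bases, with flanking bases of the mRNA in lower case. The spliced product is the same for each placement, so the capitals do not show where IRE1 cuts.
XBP1: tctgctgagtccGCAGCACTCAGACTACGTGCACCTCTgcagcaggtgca
The deposited tables hold 1 row per gene symbol, so spliced and unspliced XBP1 mRNA cannot be told apart in them and the splicing itself was not analysed here.

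Plasma-cell markers were set beside XBP1, which is high in plasma cells. Their summed level was 812 to 823 CPM in OCI-Ly1 with DMSO and 642 to 671 at 500 nM, with 1 of 5 tested markers higher and 3 lower. In TMD8 the sum was 467 to 487 CPM with DMSO and 524 to 542 at 500 nM, with 3 of 6 higher and 1 lower. Of all genes tested at 500 nM, 27.7% were called higher and 25.9% lower in OCI-Ly1, and 29.9% and 30.7% in TMD8. PRDM1 made up most of the TMD8 sum, at a mean of 382 CPM with DMSO and 432 at 500 nM (0.18). SDC1, a defining surface marker, was at 0 CPM in every OCI-Ly1 library with DMSO or 150 nM, and in TMD8 it rose from a mean of 2.29 CPM with DMSO to 7.17 at 150 nM (3.15-fold) and 15.8 at 500 nM (6.86-fold, log2 2.78, adjusted p = 5.5e-11 by edgeR). TNFRSF17, the receptor BCMA, rose 2.71-fold in OCI-Ly1 and 1.58-fold in TMD8 at 500 nM, and MZB1, a chaperone partner in antibody folding, fell by 0.85 in OCI-Ly1. FKBP11 fell in both lines at 500 nM (-0.28 in OCI-Ly1 and -0.58 in TMD8), and IGJ fell in OCI-Ly1 (-0.47). In TMD8 MZB1 (-0.01) and IGJ (0.09) were not called. The part of these markers in the XBP1 change was not tested.

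**Figure D2:**
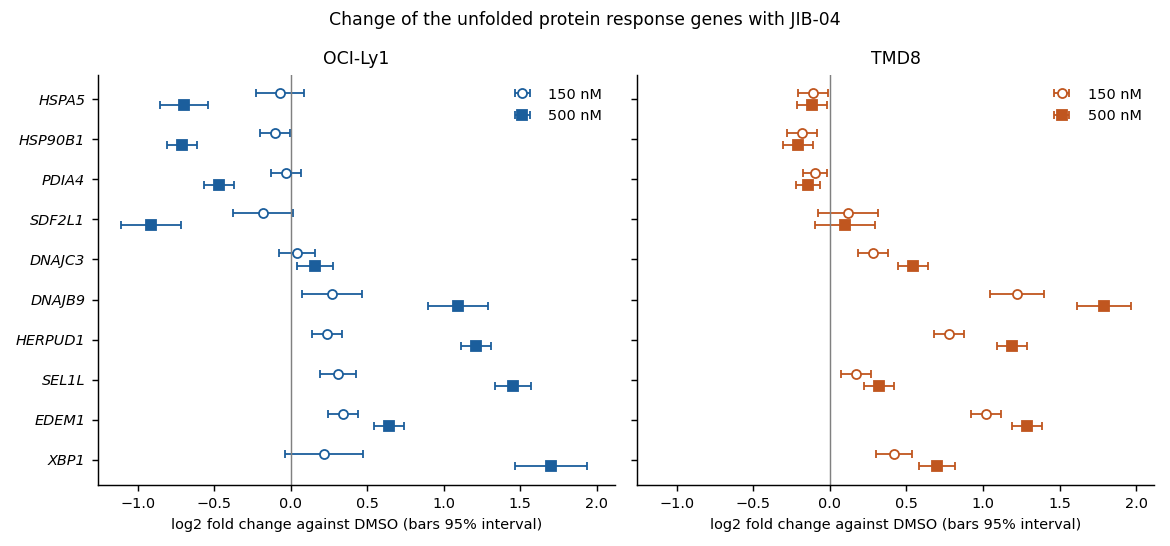
Log2 fold change of each gene against DMSO by edgeR, at 150 nM (open circles) and 500 nM (filled squares), in OCI-Ly1 (left) and TMD8 (right); bars are 95% intervals from the SE. HSPA5, HSP90B1 and PDIA4 lie left of 0 at 500 nM in both lines, SDF2L1 in OCI-Ly1 only, and XBP1 and SEL1L reach furthest right in OCI-Ly1 while DNAJB9 does in TMD8.

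In OCI-Ly1 the step from 150 to 500 nM had a larger log2 fold change than that from DMSO to 150 nM for each gene except EDEM1 (0.29 against 0.34). Between those doses 5 of the 10 genes rose and 4 fell there, where 46.2% of all genes were called in either direction. XBP1 rose by 1.48 (± 0.11 SE, adjusted p = 1.1e-08 by edgeR), SEL1L by 1.14 (± 0.06 SE, adjusted p = 1.9e-11 by edgeR) and HERPUD1 by 0.97 (± 0.05 SE, adjusted p = 8.5e-11 by edgeR), and SDF2L1 fell by 0.72 (± 0.11 SE, adjusted p = 2.3e-05 by edgeR). DNAJC3 was not called between the doses (0.12, adjusted p = 0.12 by edgeR). In TMD8 6 genes rose and 0 fell from 150 to 500 nM, where 13.7% of all genes were called higher and 15% lower. The rises there were from 0.15 for SEL1L to 0.56 for DNAJB9. SEL1L lost that call without 150 nM replicate 3 (0.12) or without 500 nM replicate 1 (0.15) or 2 (0.15), and its value was -0.04 on the log2(TPM + 1) scale. HSPA5 (-0.01), HSP90B1 (-0.03), PDIA4 (-0.03) and SDF2L1 (-0.02) were not called in TMD8 between the doses, each with edgeR adjusted p of 0.63 or above.

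The difference between the lines was tested itself, by subtracting the TMD8 change from the OCI-Ly1 change in 1 fit over 16604 genes. At 500 nM 9 of the 10 genes differed, against 46.4% of all genes in either direction. The change was more positive in OCI-Ly1 for SEL1L (1.15, ± 0.08 SE, adjusted p = 3.5e-12 by edgeR) and XBP1 (1.03, ± 0.13 SE, adjusted p = 2.8e-07 by edgeR). It was more negative for the other 7, from -0.98 for SDF2L1 (± 0.16 SE, adjusted p = 1.8e-05 by edgeR) to -0.31 for PDIA4 (± 0.07 SE, adjusted p = 0.00054 by edgeR). HERPUD1 was the gene not called, at 0.05 with a 95% interval from -0.10 to 0.19, although it was called on the uncentred TPM scales (0.53, adjusted p from 0.0013 to 0.0021 by limma). At 150 nM 4 genes differed, against 23.3% of all genes in either direction. All 4 were more negative in OCI-Ly1, as were 8.33% of all genes: DNAJB9 (-0.94), EDEM1 (-0.66), HERPUD1 (-0.53) and DNAJC3 (-0.23). The DNAJC3 call at 150 nM (adjusted p = 0.039 by edgeR) was lost without OCI-Ly1 DMSO replicate 2, OCI-Ly1 150 nM replicate 1, TMD8 DMSO replicate 2 or 3, or TMD8 150 nM replicate 2 or 3 (-0.23 to -0.17). The same call was lost with DESeq2 (-0.21, adjusted p = 0.063), median-ratio scaling (-0.21, adjusted p = 0.078 by edgeR), no low-count filter (-0.22, adjusted p = 0.057 by edgeR) and the TPM scales, centred TPM included (-0.16), and it held in 8 of 21 alternatives. Without OCI-Ly1 150 nM replicate 1 SEL1L passed instead (0.20, adjusted p = 0.047 by edgeR), and without OCI-Ly1 DMSO replicate 3 SDF2L1 did (-0.42, adjusted p = 0.04 by edgeR). On the log2(TPM + 1) scale the median of all genes was 0.383 at 500 nM. There 1 of the 10, SDF2L1, was called more negative in place of 7, where 6.7% of all genes were, against 18.1% on the counts. After centring each library on its median all 9 calls at 500 nM were as in the counts.

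The sensors were measured beside their targets. ERN1, which encodes IRE1, stood at 3.21, 3.05 and 2.99 CPM in OCI-Ly1 with DMSO, 4.72, 4.17 and 5 at 150 nM, then 31.6, 28.3 and 26.6 at 500 nM. In TMD8 it held 10.8, 8.69 and 9.26 CPM with DMSO, 19.7, 24.2 and 29.4 at 150 nM, then 44.7, 44.7 and 43.3 at 500 nM. ERN1 rose by 3.22 (± 0.12 SE, adjusted p = 1.6e-13 by edgeR, 9.34-fold) in OCI-Ly1 and by 2.21 (± 0.12 SE, adjusted p = 3.1e-11 by edgeR, 4.64-fold) in TMD8 at 500 nM, more than any of the 10 genes in the same line. ATF6 stood at 52.5, 55.2 and 52.7 CPM with DMSO against 82.8, 74.4 and 82.3 at 500 nM in OCI-Ly1, and 79.5, 73.8 and 70.4 against 67.2, 69.4 and 73.8 in TMD8. ATF6 rose by 0.58 in OCI-Ly1 (± 0.07 SE, adjusted p = 1.1e-06 by edgeR), and its TMD8 groups overlapped (-0.09, ± 0.06 SE, adjusted p = 0.21 by edgeR), with a difference between the lines of 0.70 by the same interaction test. On log2(TPM + 1) ATF6 was called lower in TMD8 (-0.40, adjusted p = 0.0046 by limma), and on centred TPM it was not (-0.14, adjusted p = 0.059 by limma). EIF2AK3, which encodes PERK, rose by 0.30 in OCI-Ly1 (± 0.06 SE, adjusted p = 0.00082 by edgeR) and by 0.81 in TMD8 (± 0.08 SE, adjusted p = 6.9e-08 by edgeR). Of the 11 sensors and transducers tested, 5 were higher and 3 lower in OCI-Ly1 (median 0.26), against 27.7% and 25.9% of all genes, and 5 higher and 4 lower in TMD8 (median 0.05), against 29.9% and 30.7%. CREB3, a relative of ATF6, was the other leading riser in OCI-Ly1 (0.35), and CREB3L2 in TMD8 (0.71).

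**Figure D3:**
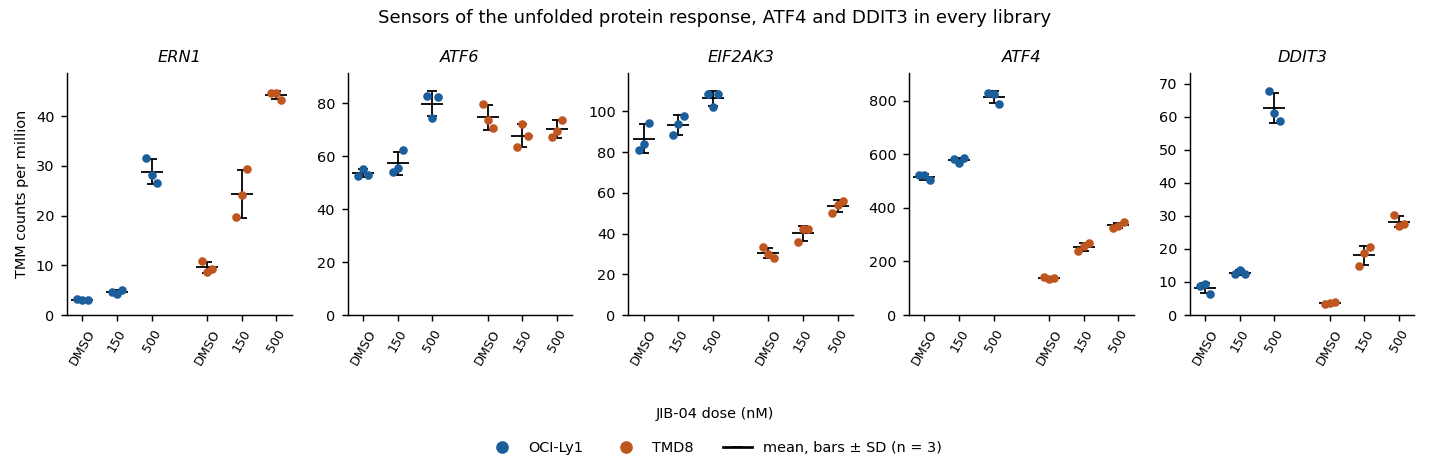
Level of the sensor genes ERN1 (IRE1), ATF6 and EIF2AK3 (PERK) and of ATF4 and DDIT3 in every library, as TMM-normalised CPM on a linear axis from 0, by JIB-04 dose and cell line; points are libraries, lines the mean and bars ± SD (n = 3). ERN1 and DDIT3 climb with dose in both lines, while ATF6 is higher at 500 nM in OCI-Ly1 only and overlaps DMSO in TMD8.

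The outputs of PERK and ATF4 rose as a group. Of 16 genes listed 14 passed the low-count filter, and 14 were called higher and 0 lower in each line at 500 nM, with a median change of 2.89 in OCI-Ly1 and 1.59 in TMD8. Among all OCI-Ly1 genes tested, edgeR called 27.7% higher at this dose, with 25.9% called lower. The TMD8 background was 29.9% called higher, with 30.7% called lower. At 150 nM 10 of the 14 were higher in OCI-Ly1 (median 0.57) and 14 in TMD8 (median 1.18), with 0 lower. The OCI-Ly1 background at 150 nM was 0.748% called higher, with 0.141% called lower. For TMD8 these shares stood at 19.2% (higher) plus 25% (lower). ATF4 itself rose by 0.66 (± 0.04 SE, adjusted p = 5.1e-10 by edgeR) in OCI-Ly1 and by 1.29 (± 0.05 SE, adjusted p = 1.1e-12 by edgeR) in TMD8. DDIT3, the death-linked factor CHOP, stood at 8.68, 9.33 and 6.42 CPM with DMSO against 67.8, 61.2 and 58.9 at 500 nM in OCI-Ly1, and 3.37, 3.7 and 3.92 against 30.2, 27.1 and 27.5 in TMD8. DDIT3 rose by 2.96 in OCI-Ly1 (± 0.11 SE, adjusted p = 1.9e-13 by edgeR) and by 2.94 in TMD8 (± 0.12 SE, adjusted p = 2.4e-12 by edgeR). The other leading risers were ATF3 (6.13), CHAC1 (4.62), which degrades glutathione, and CEBPB (4.10) in OCI-Ly1, and CHAC1 (5.86), SESN2 (3.67) and CEBPB (3.02) in TMD8. The ATF4 element AARE was in 3 of the 13 promoters of this list that were found (23.1%), those of ATF3, CHAC1 and ASNS. Under the alternatives at 500 nM the count called higher was 14 in OCI-Ly1 and 13 to 15 in TMD8, with 0 lower.

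The remaining folding genes did not all move one way, though more of them fell than rose in TMD8. Among 18 other chaperones and foldases of the endoplasmic reticulum, 8 rose and 7 fell in OCI-Ly1 at 500 nM (median 0.04), and 4 rose and 11 fell in TMD8 (median -0.30). Of all genes in OCI-Ly1, 27.7% were called higher and 25.9% lower, and TMD8 had 29.9% and 30.7%. The 4 rises in TMD8 were thus near its background, while the 11 falls lay above it. MANF (-1.02) and CALR (-0.95), an ATF6-responsive secreted factor and the lectin chaperone calreticulin, fell most in OCI-Ly1, and TXNDC5 (0.62) rose most. In TMD8 ERO1LB (0.90), an oxidase of disulfide formation, and CRELD2 (0.72) rose while PPIB (-0.64), a proline isomerase, fell. The ERSE was in 4 of the 17 promoters found for this list (23.5%), those of CALR, CANX, CRELD2 and ERO1B, the current symbol of ERO1LB. CALR fell in both lines (-0.51 in TMD8), CANX, the lectin chaperone calnexin, fell in both (-0.29 in OCI-Ly1 and -0.61 in TMD8), while ERO1LB rose in both (0.47 and 0.90) and CRELD2 in TMD8 alone was called (0.06 in OCI-Ly1, adjusted p = 0.5 by edgeR). The genes named here with the ERSE thus stood on both sides of 0. Among the 10, the genes with the ERSE or ERSE-II did so too, as HERPUD1 and XBP1 rose in both lines. HSPA5, HSP90B1 and SDF2L1 fell in OCI-Ly1 (-0.91 for SDF2L1), and SDF2L1 was not called in TMD8 (0.10). HYOU1 of this list has the ERSE-II in its window, and its change is not given here.

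Of 17 other degradation genes, 8 rose and 3 fell in OCI-Ly1 (median 0.13) and 6 rose and 5 fell in TMD8 (median -0.03), the TMD8 counts lying near the 29.9% and 30.7% of all genes. VCP, the ATPase that pulls substrates out, fell by 0.83 in OCI-Ly1, and DERL1 (0.45) and VIMP (0.43) rose there. DERL3 (1.34), EDEM2 (0.61) and VIMP (0.39) led in TMD8. Of 24 translocation and transport genes, 8 rose and 4 fell in OCI-Ly1 (median 0.02), and 4 rose and 13 fell in TMD8 (median -0.15). The OCI-Ly1 counts of this list lay near or below the 27.7% and 25.9% of all genes. The retrieval receptor KDELR3 (-1.01) fell most in OCI-Ly1 and KDELR2 (-0.52) in TMD8, while ARFGAP3 rose in both lines (0.95 and 0.56), SEC63 (0.46) rose in OCI-Ly1 and the coat subunit SEC24D (0.96) rose in TMD8. The XBP1 element core was in 2 of 17 chaperone, 2 of 13 degradation and 2 of 20 transport promoters found (0.667% of all promoters). VCP and KDELR3 carry it, and the changes of the other carriers are not given here. Of 13 cytosolic heat-shock genes 2 rose and 9 fell in OCI-Ly1 (median -0.49), and 5 rose and 8 fell in TMD8 (median -0.70). HSPA6 rose in both lines (3.52 and 7.37), HSPA8 (-1.23) and HSPE1 (-0.85) fell in OCI-Ly1, and HSPA1A (6.37) and HSPA1B (2.78) rose in TMD8; the HSPA1A and HSPA1B copies are near identical, so their split is uncertain. On the log2(TPM + 1) scale the medians of these lists in TMD8 were lower: -0.63 for the chaperones, -0.39 for degradation, -0.51 for transport and -1.07 for heat shock.

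**Figure D4:**
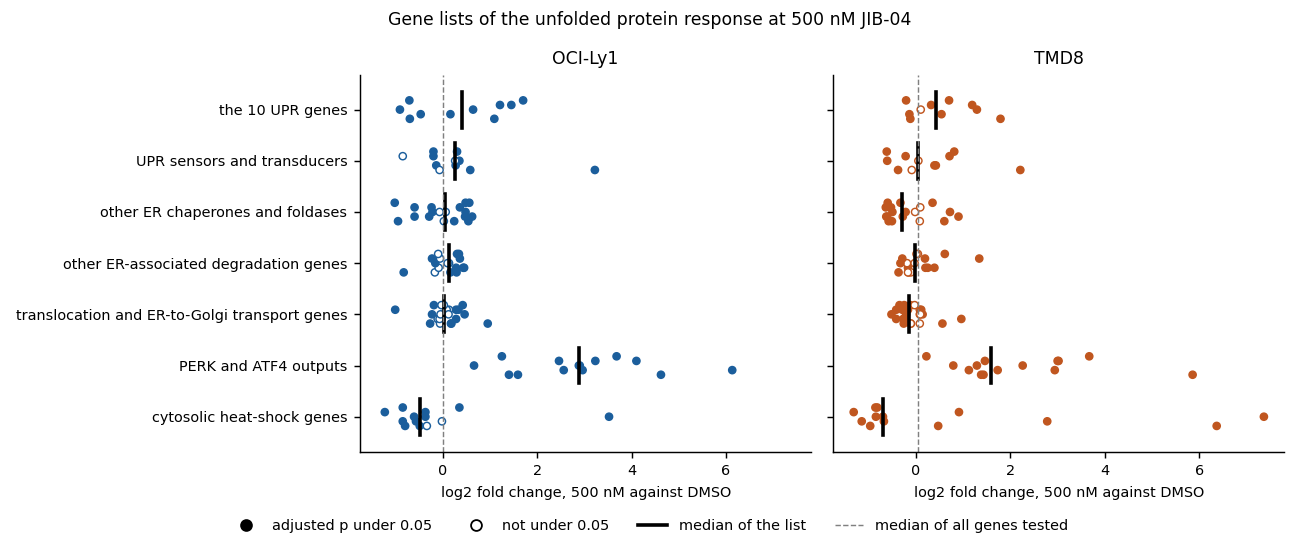
Log2 fold change at 500 nM against DMSO of the genes in each list, by edgeR, in OCI-Ly1 (left) and TMD8 (right); filled points have an adjusted p under 0.05, black bars are list medians and the dashed line is the median of all genes tested. The PERK and ATF4 outputs lie wholly right of 0, with medians of 2.89 and 1.59, while the 10 genes and the other lists spread to both sides.

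Levels between genes can be compared per length, as TPM within a line. In OCI-Ly1 with DMSO the order of mean TPM was PDIA4 (159.8 ± 6.22, SD, n = 3), HSP90B1 (120.0 ± 8.63), HERPUD1 (61.2), HSPA5 (60.3), SDF2L1 (47.3), EDEM1 (36.4), DNAJC3 (26.7), SEL1L (18.5), DNAJB9 (8.45) and XBP1 (5.13). Only HERPUD1 and HSPA5 overlapped among neighbours in that order. At 500 nM HERPUD1 led (155.6 ± 1.24), ahead of PDIA4 (126.7 ± 3.91) and HSP90B1 (80.4 ± 2.06), and SEL1L (52.3) had passed HSPA5, while DNAJB9 (19.7) and XBP1 (18.5) overlapped. In TMD8 with DMSO the order was HSP90B1 (166.6 ± 25.0), HSPA5 (58.8 ± 7.36), HERPUD1 (45.9), PDIA4 (39.9), SEL1L (18.03), XBP1 (16.5), SDF2L1 (15.2), EDEM1 (12.02), DNAJC3 (10.4) and DNAJB9 (2.73). There HERPUD1 overlapped PDIA4, SEL1L overlapped XBP1, XBP1 overlapped SDF2L1, and EDEM1 overlapped DNAJC3. At 500 nM HSP90B1 (110.7 ± 9.12) still led in TMD8, followed by HERPUD1 (80.7 ± 7.07), HSPA5 (41.5) and PDIA4 (28.0).

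TPM levels are not set side by side between the lines. The short RNA genes MIR3687, MIR3648 and MIR663A, 3 genes chosen after their values were seen, took 37.5 to 42.8% of all TPM in the TMD8 libraries with DMSO and 45.4 to 51% at 500 nM. In OCI-Ly1 they took 0.679 to 1.28% with DMSO and 3.43 to 3.72% at 500 nM. In the counts, OCI-Ly1 and TMD8 with DMSO differed in all 10 genes, where 76.7% of all genes did in either direction. In OCI-Ly1 5 were higher, from 0.39 for DNAJC3 to 1.03 for PDIA4, and 5 were lower, from -0.55 for HERPUD1 to -2.64 (± 0.10 SE, adjusted p = 1.2e-19 by edgeR) for XBP1. On the log2(TPM + 1) scale 2 of those 5 lower calls were left, where 17.5% of all genes were called lower, against 39% on the counts. The values on that scale were 0.41 for HERPUD1, 0.04 for HSPA5 and 0.04 for SEL1L, where the median of all genes was 0.614.

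**Figure D5:**
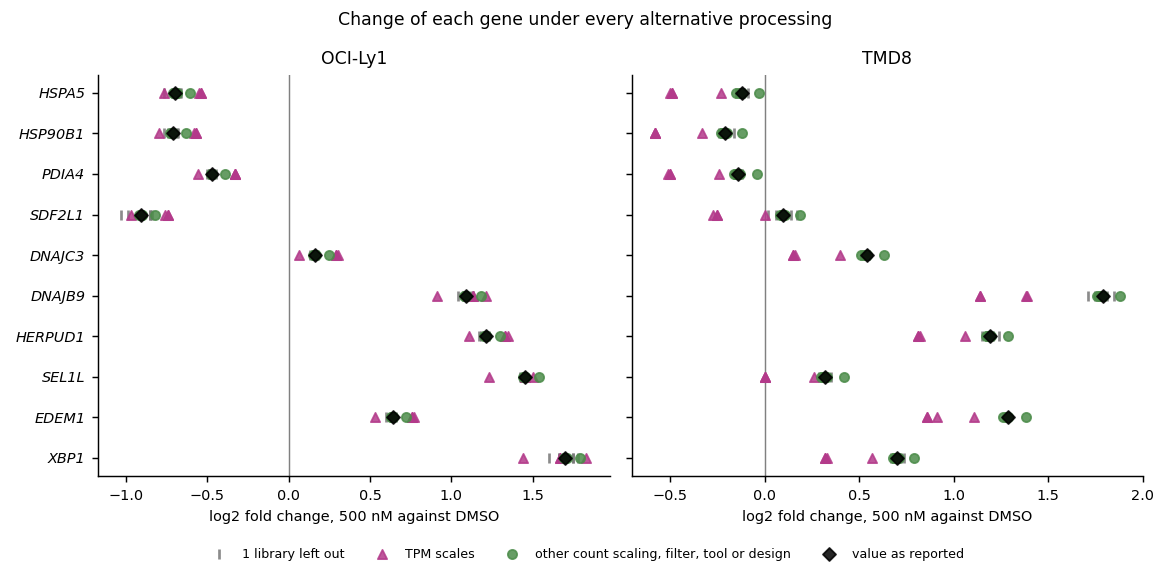
Log2 fold change of each gene at 500 nM against DMSO under every alternative processing, in OCI-Ly1 (left) and TMD8 (right), on axes of different range; diamonds are the values as reported, circles other count scalings, filters, tools or designs, triangles the TPM scales and ticks the fits without 1 library. The TPM triangles sit to the left in TMD8, where SEL1L reaches 0.00 and SDF2L1 -0.27, while HERPUD1, DNAJB9, EDEM1 and XBP1 stay right of 0 in both lines.

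The TPM scale mattered most in TMD8. On log2(TPM + 1) 4 of the 10 genes were called higher and 3 lower there at 500 nM (median 0.08), without DNAJC3 and SEL1L. On that scale 11.4% of all genes were called higher and 49.3% lower. At 150 nM 3 were called higher, without DNAJC3, SEL1L and XBP1, where 7.35% of all genes were. From 150 to 500 nM 1 was called higher in place of 6, where 3.02% of all genes were, against 13.7% on the counts. After each library was centred on its median, 6 were again called higher and 3 lower at 500 nM (median 0.33).

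The genes most like HSPA5 were sought by Pearson correlation of log2 CPM, centred on each line's mean, over 18 libraries among 9949 genes with at least 5 CPM on average in each line. The 5 closest were RPS16 (r = 0.977), RPL3 (r = 0.967), RPS3 (r = 0.963), RPL7A (r = 0.955) and ASMTL (r = 0.945), of which the first 4 encode ribosomal proteins. RPS16 stood at 248, 271 and 216 CPM in OCI-Ly1 with DMSO, 290.5, 232 and 239 at 150 nM, then 133, 133 and 132 at 500 nM, with the low DMSO replicate 3 and the high 150 nM replicate 1 that HSPA5 also had. For HERPUD1, chosen for this after its values were seen, the closest were BCAS3 (0.991), JMY (0.989), IGF2R (0.988), GPT2 (0.988) and YPEL5 (0.988). These correlations are descriptions: the libraries share dose groups and depth, and ribosomal protein genes have many copies among which reads can be split.

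The OCI-Ly1 libraries held between 17579732 and 32651115 estimated counts each, the TMD8 libraries between 9550092 and 20509500. The most abundant member, HSP90B1, reached 12410 estimated counts in a library. Pairs of libraries of a group differed by more than sampling noise, with chi-square per degree of freedom from 1.65 to 11.5 over 18 pairs. TMD8 DMSO replicate 1 stood apart from replicates 2 and 3, at 10.9 and 11.5, while those differed from each other by 1.94. Without it 6 of the 10 genes were called higher and 2 lower in TMD8 at 500 nM, the HSPA5 call being lost (-0.09, adjusted p = 0.059 by edgeR), and PDIA4 was called lower at 150 nM (-0.11, adjusted p = 0.038 by edgeR). B-cell markers were expressed in all groups, at a summed 1110 to 1330 CPM in OCI-Ly1 and 2310 to 2920 CPM in TMD8. Markers of T cells (8.22 CPM or less in sum) and myeloid cells (4.09 CPM or less) were low throughout. The 4 epithelial or stromal markers summed to 6.09 to 7.68 CPM in TMD8 with DMSO and 33.1 to 35.9 CPM at 500 nM, mostly COL1A1, with EPCAM at 3 counts or fewer in every TMD8 library, and their part in the changes above was not tested. On the counts the calls at 500 nM split into 4330 higher and 4057 lower in OCI-Ly1 and 4601 and 4723 in TMD8, against 5739 and 2240, and 1751 and 7581, on the log2(TPM + 1) scale.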

How the data were processed

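RNA of 18 libraries was extracted with a column kit, depleted of ribosomal RNA and sequenced in paired ends, per the labels' protocols. The authors deposited, for each cell line, a table of estimated counts and a table of TPM (transcripts per 1000000) for 23686 gene symbols. The submitters' processing notes name kallisto 0.46.0, R 4.3.1, DESeq2 1.40.2 and hg19, without their roles. Short RNA genes can take a large share of TPM, which shifts every other gene on that scale.

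Estimated counts were rounded and tested with edgeR 4.0.16 (quasi-likelihood F test, TMM scaling, filterByExpr by group; R 4.3.3) over the 9 libraries of a line. A joint fit of all 18 libraries gave the differences between lines, so its values need not equal differences of the CPM printed per line. P-values were adjusted by Benjamini-Hochberg over all genes tested, with a threshold of 0.05. The standard error was taken from the fold change and its F statistic. The script was tested on simulated counts. Tables and figures were made with Python 3.11.15, pandas 2.3.3, numpy 2.4.6 and matplotlib 3.10.9.

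Groups came from the sample labels. The members and gene lists were chosen with earlier results of these data known. Named were all 10 members and the sensors ERN1, ATF6 and EIF2AK3 with ATF4 and DDIT3. Up to 3 called genes of each other list, with the largest change at 500 nM in each line, were also named. Genes with the ERSE in the chaperone list and with the AARE in the PERK and ATF4 list were named besides. Alternatives were median-ratio scaling, library size only, no low-count filter, DESeq2 1.42.0, limma 3.58.1 on log2(TPM + 1) (also centred, unfiltered, or with a pseudocount of 0.1), a replicate block, only the 2 groups compared, and each library left out. Promoters came from RefSeq on GRCh38.p14, not the build of the notes, and were matched by symbol. Symbols of antisense or overlapping genes were taken as deposited.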

Additional observations from a re-analysis of the deposited data

Results flagged for a closer look

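The change against DMSO differed between the lines in 4 of the 10 genes at 150 nM, where 23.3% of all genes did, and in 9 at 500 nM, where 46.4% did, by edgeR's interaction test (OCI-Ly1 minus TMD8, log2). Line and culture medium cannot be told apart in these differences.

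At 150 nM the differences were -0.94 for DNAJB9, -0.66 for EDEM1, -0.53 for HERPUD1 and -0.23 for DNAJC3. The DNAJC3 difference was called in 8 of 21 alternatives. Among the sensors and stress factors the values were -1.63 for DDIT3, -0.78 for ERN1, -0.72 for ATF4 and -0.30 for EIF2AK3. That of EIF2AK3 was not called with median-ratio scaling (-0.28), DESeq2 (-0.28), log2(TPM + 1) (-0.07) or centred TPM (-0.18).

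At 500 nM the differences were -0.98 for SDF2L1, -0.67 for DNAJB9, -0.62 for EDEM1, -0.54 for HSPA5, -0.47 for HSP90B1, -0.35 for DNAJC3 and -0.31 for PDIA4. They were 1.15 for SEL1L and 1.03 for XBP1, which rose further in OCI-Ly1. Among the sensors and ATF4 the values were 1.04 for ERN1, 0.70 for ATF6, -0.60 for ATF4 and -0.49 for EIF2AK3. ATF4 (-0.04) and EIF2AK3 (0.05) were not called on the log2(TPM + 1) scale and were called after centring (-0.50 and -0.40).

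Groups held 3 libraries each, and single libraries were not tested for standing apart. TMD8 DMSO replicate 1 differed most from the others of its group.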

How the results depend on the processing

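Of 1520 values of single members under the alternatives, 1395 stayed on their side of the threshold with the direction of any call, 87 lost a call, 16 gained one with the same sign and 22 changed sign with a call in at least 1 of both fits. Of the 1395, 14 were uncalled in both fits and of opposite sign, between -0.25 and 0.07. The cause was not tested, except that the uncentred TPM scales move all genes together.

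On log2(TPM + 1), log2(TPM + 0.1) and log2(TPM + 1) without a filter, the counts called were as follows, in that order where they differ: 1 higher in OCI-Ly1 at 150 nM (also 1 after centring), 3 higher in TMD8 at 150 nM, 1, 0 and 0 higher in TMD8 from 150 to 500 nM, 1 lower for the line difference at 500 nM and 2 lower with DMSO in OCI-Ly1 against TMD8. For the same comparisons and directions, in that order, the shares of all genes called on log2(TPM + 1) were 0.384%, 7.35%, 3.02%, 6.7% and 17.5%. Without a filter the line difference at 150 nM had 2 lower. The sign changed on these scales for SEL1L in TMD8 from 150 to 500 nM (-0.04), for the line difference at 500 nM of HSP90B1 (0.01), PDIA4 (0.16, 0.18 and 0.16) and DNAJC3 (0.14), and for OCI-Ly1 against TMD8 with DMSO of HSPA5 (0.04), HERPUD1 (0.41, 0.42 and 0.41) and SEL1L (0.04). SDF2L1 in TMD8 at 500 nM was -0.27 on log2(TPM + 0.1).

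The count called lower in TMD8 at 150 nM was 0 with library size only, with unfiltered TPM and in the fit of 2 groups only, and 3 on centred TPM. Library size only left 1 called lower in TMD8 at 500 nM. Leaving out each library in turn gave, as lowest and highest count, 1 to 4 higher in OCI-Ly1 at 150 nM, 0 to 3 lower in TMD8 at 150 nM, 1 to 3 lower in TMD8 at 500 nM and 0 to 1 higher for the line difference at 150 nM.

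With the replicate block the counts called were the same, for example 6 higher and 4 lower in OCI-Ly1 and 6 and 3 in TMD8 at 500 nM, and it changed no call. Correlations of same-numbered libraries were -0.0462 to 0.146 in OCI-Ly1 and -0.0545 to 0.141 in TMD8, against -0.173 to 0.0419 and -0.19 to 0.105 for different numbers. In each line 2 of 9 same-numbered pairs were over 0.1, not all, so the numbers were not taken to pair the libraries. The block could not be estimated for the lines with DMSO. TMD8 was sequenced less deeply than OCI-Ly1, and XBP1 in OCI-Ly1 with DMSO rests on the fewest counts.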
